A study of Sus scrofa with 16 samples.

Results

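Skeletal myosin transcripts were examined in cultured satellite cells (SCs) from dystrophin-deficient and healthy piglets. The set consists of 5 genes chosen by name, the light chain genes *MYLPF*, *MYL1* and *MLC2V* and the heavy chain genes *MYH1* and *MYH2*, out of 3875 genes in the count table. The choice was made with earlier results of these data known. RNA was sequenced from 16 samples that form 4 groups of 4, namely DMD SCs after differentiation (DIFF), DMD SCs in proliferation (PROL), WT SCs in DIFF and WT SCs in PROL. All were labelled as myogenic SCs of muscle tissue. The donors were male piglets 3 days of age and the muscle was the intercostalis. Magnetic sorting removed CD31 and CD45 positive cells and then captured cells with integrin β1, NCAM1 and M-cadherin. The labels give the genotypes as DMD and WT and name no allele. PROL cells grew in Ham's F10 medium with fetal bovine serum and basic fibroblast growth factor. DIFF cells were kept in the same base medium with reduced horse serum, for 10 days in the sequencing methods. Each of the 4 DMD and 4 WT animals gave 1 sample per state.

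Myosin II of the sarcomere, the contractile unit of striated muscle, is a hexamer of a pair of heavy chains and a pair each of essential and regulatory light chains. The heavy chain carries the motor head that pulls on actin, and the light chains stiffen and tune its lever arm. *MYLPF* (also called *MYL11*) encodes the regulatory light chain of fast fibers, *MYL1* the essential light chains of fast fibers, and *MLC2V* the regulatory light chain of slow fibers and of the heart ventricle. RefSeq lists *MLC2V* as a synonym of the pig gene *MYL2*. *MYH1* and *MYH2* encode fast heavy chains of type IIx and type IIa fibers. In cultured muscle cells these genes switch on as myoblasts leave the cell cycle and fuse, while *PAX7*-positive SCs at rest hardly express them. *MYH4*, *MYH1* and *MYH2* follow one another on the pig chromosome in RefSeq's Sscrofa11.1 annotation and are near-identical copies in much of their coding sequence. Reads that fit several of them could have been dropped in the counting, so the heavy chain values are uncertain in this respect.

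Samples held between 1110050 and 1781174 counts after their 2 technical duplicates were added. Levels are given as CPM (counts per 1000000 counts of a library, after TMM scaling), and differences are log2 fold changes (log2FC) from edgeR's quasi-likelihood test. A gene was called where its *p*, adjusted by Benjamini-Hochberg over all genes tested, was under 0.05 and its log2FC was beyond 0.6 in either direction. The *p*-values rest on 4 animals per group. Over all genes, calls between DMD and WT in DIFF were 308 higher and 335 lower (387 and 267 when scaled by total counts only), and in PROL 160 higher and 189 lower (122 and 264). Between DIFF and PROL they were 302 higher and 234 lower in DMD (280 and 266) and 343 higher and 275 lower in WT (194 and 564). The transcript of the *DMD* gene, which encodes dystrophin, had 30 to 48 counts per library in DMD DIFF, 24 to 32 in DMD PROL, 12 to 22 in WT DIFF and 6 in every WT PROL library, and these 3′ tags do not show the mutation. DMD PROL replicate 4 stood apart, with 20.4% of its counts in the 18S ribosomal RNA gene *RN18S*, against 6.32% to 11.7% in the other 15 libraries. It also held the lowest level of each of the 5 myosin genes in its group. All 5 genes stayed in the description, and 4 passed the low-count filter over the 16 libraries. *MYH2* was too low for it.

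*MYLPF*, the fast regulatory light chain gene, was at 8306, 7131, 6908 and 9226 CPM in the DMD DIFF libraries of animals 1 to 4. In DMD PROL the same animals stood at 3469.8, 4230.3, 4031 and 2318 CPM. WT DIFF libraries were at 1383, 999, 1457 and 1676 CPM, and WT PROL libraries at 68.5, 103, 141 and 136 CPM. Bulk counts cannot tell fewer muscle cells from less transcript per cell. No groups overlapped, and the order of the levels was DMD DIFF, DMD PROL, WT DIFF and WT PROL. *MYLPF* was the 23rd to 33rd most counted gene of each DMD DIFF library, and the 640th to 961st in WT PROL.

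*MYL1*, the fast essential light chain gene, followed the same order. It was at 5345, 4145, 3715 and 5450.0 CPM in DMD DIFF and at 2317, 2573, 2178 and 1489 CPM in DMD PROL. WT DIFF libraries held 938, 736, 1029.7 and 1375 CPM, and WT PROL libraries 80.1, 74.5, 91.4 and 109 CPM. The groups were again apart, most narrowly between DMD PROL replicate 4 (1489 CPM) and WT DIFF replicate 4 (1375 CPM).

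*MLC2V*, the slow and ventricular regulatory light chain gene, was at 1142, 1362, 1365 and 1437 CPM in DMD DIFF. In DMD PROL it was at 325, 282, 316 and 165 CPM. WT DIFF libraries were at 116, 128, 89.4 and 117 CPM, and WT PROL libraries at 7.29, 7.45, 7.61 and 12.3 CPM. The WT PROL values rest on 10 to 16 counts per library. Here too the 4 groups did not overlap.

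*MYH1*, the type IIx heavy chain gene, was at 144, 87.5, 95.1 and 44.2 CPM in DMD DIFF and at 35.7, 40.5, 35.0 and 10.5 CPM in DMD PROL. WT libraries held few reads of it, 4 to 8 counts each in DIFF (2.59 to 5.45 CPM) and 0 to 4 in PROL (0 to 3.08 CPM). The DMD groups lay above both WT groups, and the WT groups overlapped each other. Animal 4 had the lowest *MYH1* of the DMD libraries in both states.

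*MYH2*, the type IIa heavy chain gene, had 8, 16, 4 and 10 counts in the DMD DIFF libraries and 6, 4, 6 and 2 in the DMD PROL libraries. It had 0 counts in all 8 WT libraries, which allows up to 0.456 CPM over the 4 WT DIFF libraries together and up to 0.557 over the 4 in PROL. *MYH2* was thus detected in 8 of 8 DMD libraries and in none of the WT libraries at this depth. Such limits cover counting error only. Every deposited count is even for a reason the sources used here do not give, so a count of 2 may stand for a single molecule. The limits would then be higher.

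**Figure D1:**
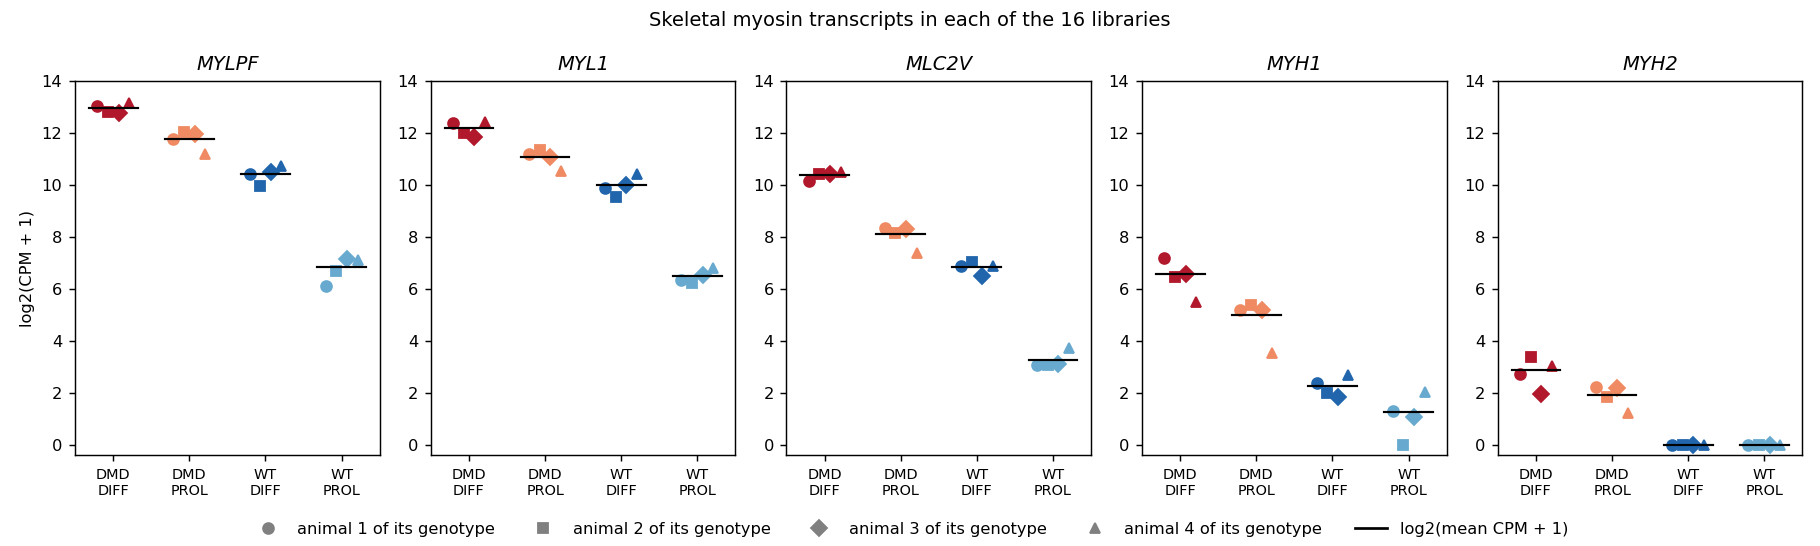
Level of each of the 5 myosin genes in the 16 libraries, as log2(CPM + 1), with groups on the horizontal axis (4 animals each, marked by symbol) and a line at the group mean. For *MYLPF*, *MYL1* and *MLC2V* all 4 DMD PROL libraries lie between the DMD DIFF and the WT DIFF libraries, and *MYH2* is at 0 in all 8 WT libraries.

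In DIFF, the genotype comparison asks whether DMD and WT cultures kept in differentiation medium differ in their myosin transcripts. All 4 members that passed the filter of this comparison were higher in DMD, where 16.1% of 1916 genes were called higher, and for 22.1% of the genes the lowest DMD library exceeded the highest WT library. *MYH1* passed the filter only through its DMD libraries, so its count is not independent evidence. *MYLPF* averaged 7893 ± 1080.2 CPM in DMD DIFF and 1379 ± 282 CPM in WT DIFF (SD, n = 4 each), a log2FC of 2.51 (SE 0.15, edgeR adjusted *p* = 4.5e-09). *MYL1* averaged 4664 ± 866 CPM in DMD DIFF, against 1019.5 ± 267 CPM in WT DIFF, a log2FC of 2.19 (SE 0.19, edgeR adjusted *p* = 4.2e-06). *MLC2V* differed more, at 1327 ± 128 CPM in DMD DIFF and 113 ± 16.5 CPM in WT DIFF, with a log2FC of 3.55 (SE 0.12, edgeR adjusted *p* = 7.9e-13). Its *p* was the 5th smallest of the 1916 genes. *MYH1* averaged 92.8 ± 41.1 CPM in DMD DIFF, against 3.78 ± 1.29 CPM in WT DIFF, a log2FC of 4.58 (SE 0.39, edgeR adjusted *p* = 2.2e-07). Its 550 counts in DMD against 22 in WT give a ratio of 26.8, with a 95% exact binomial interval from counting of 17.5 to 43.1 (14.8 to 54.3 with halved counts). *MYH2* had 38 counts in DMD and 0 in WT. With the 4 WT libraries together set to 3 counts, the ratio is 13.6 (6.79 with halved counts). This ratio takes the DMD counts as exact and leaves out the spread between animals, so it is not a strict lower limit. Fitted without a filter, where 11.2% of 3054 genes were called higher, *MYH2* had an edgeR adjusted *p* of 1.2e-04.

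In PROL, the comparison asks the same of cells that had not been placed in differentiation medium. Again 4 members passed the filter and all 4 were higher in DMD, where 8.36% of 1914 genes were called higher, and for 15.8% the DMD libraries all lay above the WT libraries. *MYLPF* averaged 3512 ± 859 CPM in DMD PROL and 112 ± 33.6 CPM in WT PROL, a fold of 31.0 (log2FC 4.95, SE 0.31, edgeR adjusted *p* = 2.4e-05). *MYL1* averaged 2139 ± 463 CPM in DMD PROL, against 88.8 ± 15.4 CPM in WT PROL, with a fold of 24.0 (log2FC 4.58, SE 0.20, edgeR adjusted *p* = 7.6e-08). *MLC2V* averaged 272 ± 73.5 CPM in DMD PROL and 8.67 ± 2.44 CPM in WT PROL, with a fold of 31.4 (log2FC 4.97, SE 0.26, edgeR adjusted *p* = 1.2e-08). The 3 light chain genes stood at ranks 6, 7 and 10 by log2FC in this comparison. *MYH1* averaged 30.4 ± 13.5 CPM in DMD PROL, against 1.41 ± 1.28 CPM in WT PROL, a log2FC of 4.44 (SE 0.60, edgeR adjusted *p* = 5.9e-05). Without WT PROL replicate 4, which holds 4 of the 8 WT counts, its log2FC was 5.06. It also passed the filter only through DMD, with 198 counts in DMD against 8 in WT, a ratio of 21.1 (95% exact binomial interval 10.5 to 49.6, and 8.00 to 79.1 with halved counts). In 4 other settings (a minimum count of 50, either technical duplicate alone and halved counts) *MYH1* did not pass the filter in PROL, so that 3 members were called. *MYH2*, with 18 counts in DMD and 0 in WT, was at least 5.12-fold higher in DMD (2.56-fold with halved counts). Without a filter its edgeR adjusted *p* was 0.027, with 6.69% of 3019 genes called higher. That call was lost in 9 other settings, among them every one without 1 of the WT libraries (adjusted *p* = 0.053 to 0.064), without DMD PROL replicate 1 (0.063) or 3 (0.054), and in either technical duplicate alone (0.25 and 0.072).

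**Figure D2:**
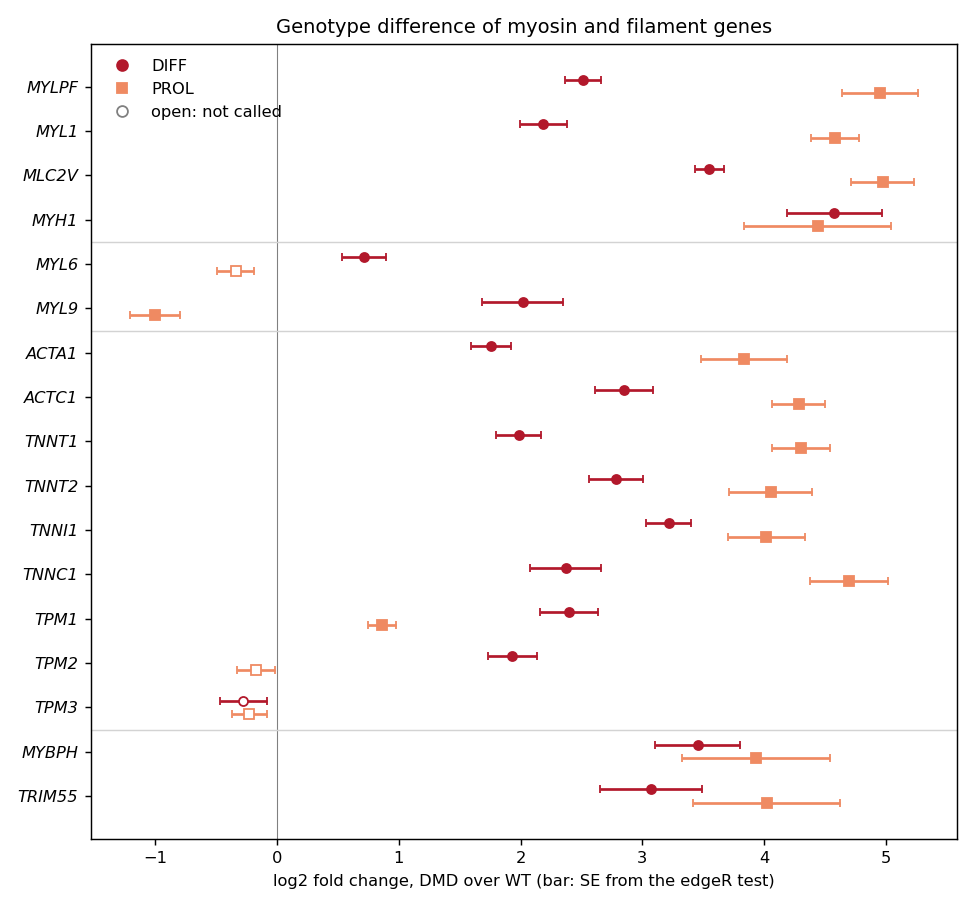
Log2 fold change of DMD over WT in DIFF (circles) and PROL (squares) for 4 myosin genes, other light chain genes, thin filament genes and thick filament partners, with bars of 1 SE and open symbols for genes that were not called. *MYLPF* and *MYL1* lie at 2.51 and 2.19 in DIFF and at 4.95 and 4.58 in PROL, while *MYL9* lies at 2.02 in DIFF and at −1.0 in PROL.

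DMD PROL libraries held more transcript of each of the 5 genes than WT DIFF libraries. The mean level in DMD PROL was 2.55 times that of WT DIFF for *MYLPF*, 2.10 times for *MYL1*, 2.42 times for *MLC2V* and 8.05 times for *MYH1*. For each of the 5 genes the lowest DMD PROL library lay above the highest WT DIFF library. Of the 2030 genes that passed the filter over 16 libraries, without *MYH2*, 23.7% were apart in this way. *MYH1* passed only through its DMD libraries, and *MYH2* had as few as 2 counts in DMD PROL, so neither is independent evidence. The separation of the 5 genes also held without TMM scaling. There *MYL1* came closest, at 1362 CPM in the lowest DMD PROL library and 1257 in the highest WT DIFF library. In the first technical duplicate alone it did not hold for *MYL1*, at 1089.7 CPM in DMD PROL replicate 4 against 1377 CPM in the highest WT DIFF library, nor for *MYH2*, which had 0 counts there in DMD PROL replicates 2 and 4 as in WT DIFF. This pair of groups differs in both genotype and state and was not tested. The mean of DMD DIFF was 70.4 times that of WT PROL for *MYLPF*, 52.5 times for *MYL1* and 153 times for *MLC2V*.

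With differentiation, the light chain genes rose in both genotypes. The tests of state treat the libraries as independent and do not pair the 2 libraries of an animal. In DMD, 4 members passed the filter and all 4 were called higher in DIFF, where 16.0% of 1886 genes were called higher and 21.6% had all DIFF libraries above all PROL libraries. In WT, 3 passed and all 3 were called higher, where 17.9% of 1921 genes were and 23.6% had no overlap in this direction. *MYLPF* rose in DIFF against PROL by a log2FC of 1.16 in DMD (SE 0.19, edgeR adjusted *p* = 0.0013) and of 3.60 in WT (SE 0.25, edgeR adjusted *p* = 6.4e-06). *MYL1* rose by 1.11 in DMD (SE 0.19, edgeR adjusted *p* = 0.0016) and by 3.51 in WT (SE 0.20, edgeR adjusted *p* = 1.7e-07). *MLC2V* rose by 2.27 in DMD (SE 0.20, edgeR adjusted *p* = 2.3e-05) and by 3.69 in WT (SE 0.23, edgeR adjusted *p* = 5.2e-09). *MYH1* rose in DMD by 1.59 (SE 0.44, edgeR adjusted *p* = 0.020). In WT *MYH1* was too low for the filter, with 22 counts in DIFF and 8 in PROL, and without a filter its log2FC of 1.39 was not called (SE 1.09, edgeR adjusted *p* = 0.38, 12.5% of 3045 genes called higher). *MYH2* in DMD had 38 counts in DIFF and 18 in PROL, and its log2FC of 1.15 in the unfiltered fit was not called either (SE 0.73, edgeR adjusted *p* = 0.26, 10.7% of 3046 genes called higher).

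Within animals, the direction was the same in each of the 8 for the 3 light chain genes. *MYLPF* in DIFF was 2.39, 1.69, 1.71 and 3.98 times its PROL level in DMD animals 1 to 4, against 20.2, 9.69, 10.3 and 12.4 times in the WT animals. For *MYL1* the ratios were 2.31, 1.61, 1.71 and 3.66 in DMD, against 11.7, 9.87, 11.3 and 12.6 in WT. For *MLC2V* they were 3.51, 4.83, 4.32 and 8.68 in DMD, against 15.9, 17.2, 11.7 and 9.51 in WT. Every DMD animal had a smaller ratio than every WT animal for each of these genes. The share of all genes with such a separation was not counted. DMD animal 4, whose PROL library stood apart, had the largest ratio of the DMD animals each time.

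The difference between the genotypes in the response to differentiation was tested over all 16 libraries, where 13.0% of 2030 genes were called lower and 10.5% higher. The test subtracts the WT log2FC from that of DMD. It gave −2.45 for *MYLPF* (SE 0.33, edgeR adjusted *p* = 6.9e-05), −2.40 for *MYL1* (SE 0.30, edgeR adjusted *p* = 3.1e-05) and −1.43 for *MLC2V* (SE 0.31, edgeR adjusted *p* = 0.0017). The call for *MLC2V* was lost in the first technical duplicate alone (−1.07, edgeR adjusted *p* = 0.053). *MYH1* was not called (0.14, SE 1.56, edgeR adjusted *p* = 0.96), and its few WT counts leave a 95% interval of −2.92 to 3.20. *MYH2* has no WT count and gives no such value. The same 3 calls stand for the change in the genotype difference, which was smaller in DIFF than in PROL on the log2 scale.

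Measured as a gain in CPM and not as a ratio, the order of the genotypes was the opposite. *MYLPF* gained 4380.5 ± 1919 CPM in DMD and 1267 ± 269 CPM in WT (mean ± SD, n = 4 animals each). *MYL1* gained 2525 ± 1183 CPM in DMD and 931 ± 252 CPM in WT, and *MLC2V* 1054 ± 186 CPM in DMD and 104 ± 16.3 CPM in WT. The smallest gain among DMD animals exceeded the largest among WT animals for each gene, at 2877 against 1540.4 CPM for *MYLPF*, 1537 against 1265 CPM for *MYL1* and 817 against 121 CPM for *MLC2V*. These gains were not tested, and the share of all genes with such a separation was not counted.

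**Figure D3:**
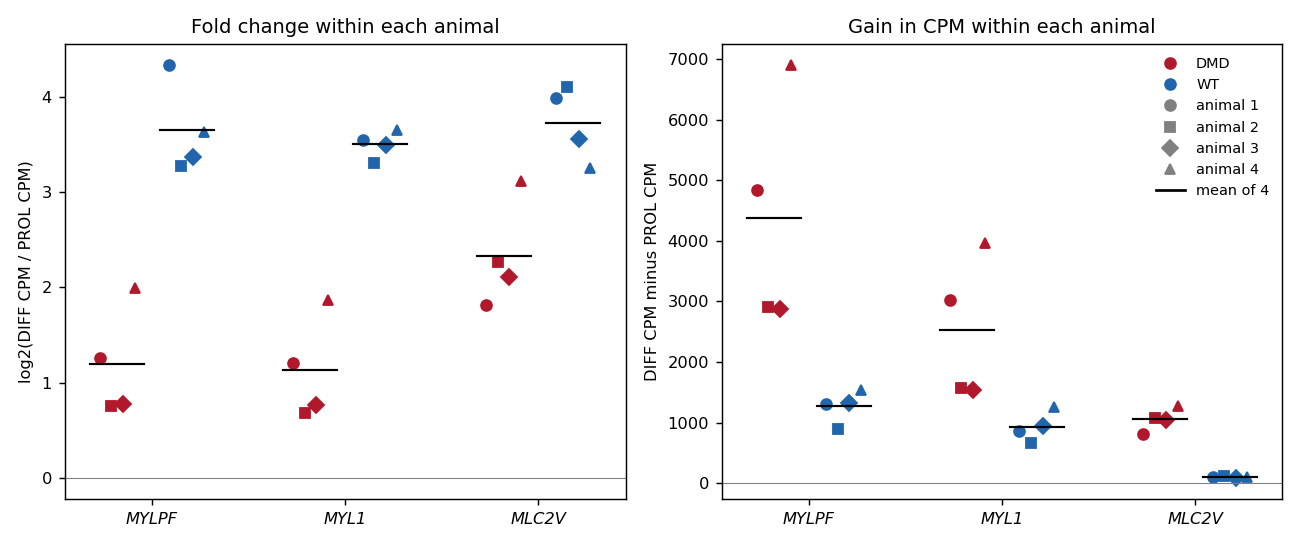
Response to differentiation within each animal for *MYLPF*, *MYL1* and *MLC2V*, as log2(DIFF CPM / PROL CPM) on the left and as DIFF CPM minus PROL CPM on the right, with DMD beside WT and a line at the mean of 4 animals. DMD animals lie below WT animals in the ratio and above them in the gain.

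The light chain genes did not move in fixed proportion to one another. For every 100 counts of *MYLPF*, DMD DIFF libraries held 13.8, 19.1, 19.8 and 15.6 counts of *MLC2V*, and DMD PROL libraries 9.37, 6.67, 7.84 and 7.14. WT DIFF libraries held 8.37, 12.8, 6.13 and 6.99, and WT PROL libraries 10.6, 7.23, 5.38 and 9.09. The DMD DIFF libraries lay above all others, and the other 3 groups overlapped. The share of *MLC2V* was higher in DIFF than in PROL in 4 of 4 DMD animals and in 2 of 4 WT animals. Against *MYL1* the pattern was alike, with 21.4 to 36.7 counts of *MLC2V* for every 100 of *MYL1* in DMD DIFF, 11.0 to 14.5 in DMD PROL, 8.52 to 17.4 in WT DIFF and 8.33 to 11.3 in WT PROL. These ratios combine 2 genes of the set and carry no test.

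The fast light chains *MYL1* and *MYLPF* kept closer to one ratio. For every 100 counts of *MYLPF*, DMD DIFF libraries held 53.8 to 64.3 counts of *MYL1*, DMD PROL libraries 54.0 to 66.8, WT DIFF libraries 67.8 to 82.0 and WT PROL libraries 64.6 to 117. In DIFF all DMD libraries lay below all WT libraries, and in PROL the groups overlapped. *MYH1* had 0.479 to 1.74 counts for every 100 of *MYLPF* in DMD DIFF, against 0.178 to 0.325 in WT DIFF. In PROL the ranges overlapped, at 0.453 to 1.03 in DMD and 0 to 2.27 in WT, where 0 to 4 counts of *MYH1* per library stand behind them. Since the tags come from 3′ ends and differ in how well they are captured, these ratios compare libraries and not the amounts of the proteins' messages.

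**Figure D4:**
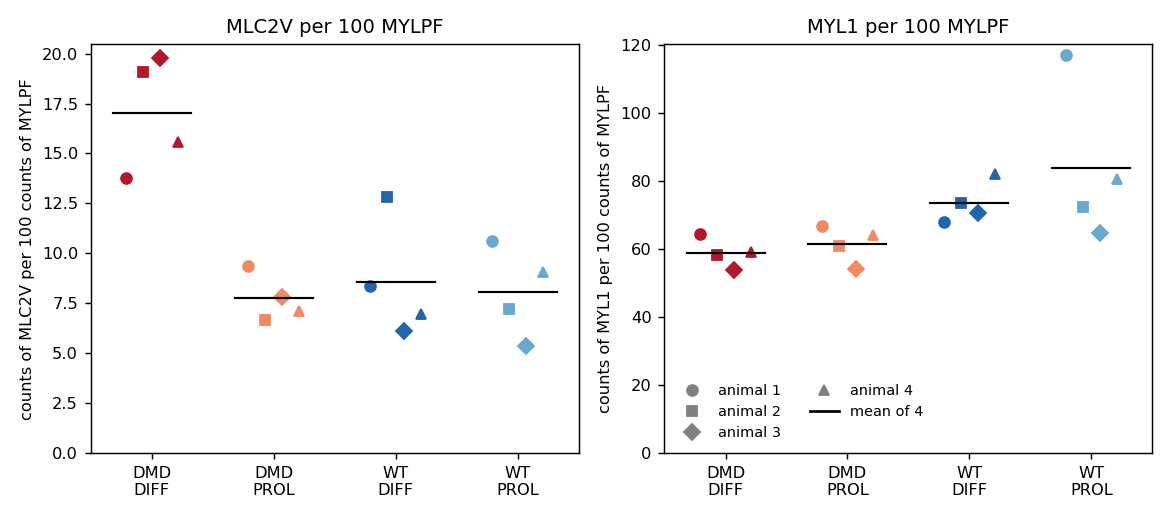
Counts of *MLC2V* (left) and of *MYL1* (right) for every 100 counts of *MYLPF* in each library, by group, with animals marked by symbol and a line at the mean of 4. The DMD DIFF libraries hold 13.8 to 19.8 counts of *MLC2V*, above the 5.38 to 12.8 of the other 12 libraries.

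Technical duplicates of a sample, counted apart, gave a scale for these differences. The SD between duplicates is that of a single duplicate. The SD between animals comes from added duplicates and still holds part of the technical variation, so the 2 are not like measures. For *MYLPF* the SD between duplicates was 0.081 to 0.21 on the log2 scale across the 4 groups, and the SD between animals 0.20 to 0.48. For *MYL1* the duplicates differed most in DMD PROL replicate 4, by 0.84, and in WT PROL replicate 1, by 0.66. In the latter they held 64 and 46 counts. In WT PROL its SD between duplicates was 0.32 and that between animals 0.24. *MLC2V* in WT had a technical SD of 0.45 in DIFF and 0.55 in PROL, beside 0.22 and 0.36 between animals. The genotype differences of 2.19 to 4.97 exceeded all of these.

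**Figure D5:**
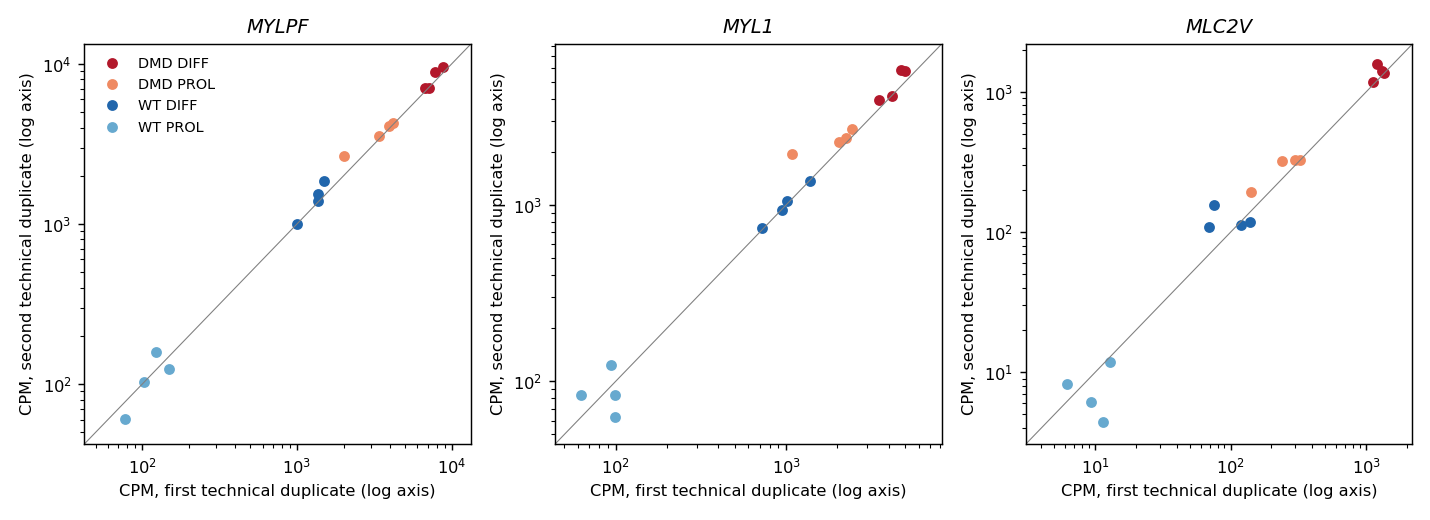
CPM of *MYLPF*, *MYL1* and *MLC2V* in the second technical duplicate against the first, on log axes, for the 16 samples coloured by group, with the line of equal values. The groups stay apart in both duplicates for *MYLPF*, while the 4 WT PROL points of *MLC2V*, at 10 to 16 counts per sample, scatter most around the line.

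The other sarcomeric myosins that could be read from the table were scarce. Of 15 symbols listed, *MYL2* among them as the other name of *MLC2V*, 3 were in the table. For symbols without a row the data give no level under that name, low or high. *MYH7*, the slow and ventricular heavy chain gene, had 60 counts in DMD DIFF and 16 in WT DIFF, and 28 in DMD PROL and 4 in WT PROL. Without a filter its log2FC of 1.86 in DIFF was called (SE 0.66, edgeR adjusted *p* = 0.017) and that of 2.56 in PROL was not (SE 1.13, edgeR adjusted *p* = 0.10). *MYL3*, the slow and ventricular essential light chain gene, had 2 counts in all, both in DMD PROL, and *MYH4*, of type IIb fibers, was at 0 in all 16 libraries, which allows up to 0.123 CPM over them. The embryonic and perinatal heavy chains *MYH3* and *MYH8* and the embryonic light chain *MYL4* are not analysed here.

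Light chains of non-muscle and smooth muscle myosin had another pattern. *MYL9*, the smooth muscle regulatory light chain gene, averaged 1242 ± 305 CPM in DMD DIFF, against 305 ± 135 CPM in WT DIFF (log2FC 2.02, SE 0.33, edgeR adjusted *p* = 0.0017). In PROL it was lower in DMD, at 144 ± 32.9 CPM in DMD against 288 ± 82.7 CPM in WT (log2FC −1.0, SE 0.20, edgeR adjusted *p* = 0.0034). *MYL6*, the essential light chain gene of the same myosins, was higher in DMD DIFF (log2FC 0.71, SE 0.18, edgeR adjusted *p* = 0.0035) and was not called in PROL (−0.34, SE 0.15, edgeR adjusted *p* = 0.11). Their response to differentiation differed between genotypes in the opposite sense to that of the skeletal light chains, with a difference of 3.02 for *MYL9* (SE 0.43, edgeR adjusted *p* = 1.4e-04) and of 1.05 for *MYL6* (SE 0.24, edgeR adjusted *p* = 0.0017).

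Among thin filament genes, 12 of 16 listed were in the table and 9 were tested. In DIFF 8 of the 9 were higher in DMD and 0 lower (16.1% and 17.5% over all genes), with a median log2FC of 2.37 against −0.03 over all genes. In PROL 7 of the 9 were higher and 0 lower (8.36% and 9.87% over all genes), with a median of 4.02 against 0.00. The troponin genes *TNNC1* and *TNNT2* passed the filter in PROL only through their DMD libraries, so they are not independent evidence. *ACTC1*, cardiac α-actin, which developing skeletal muscle also makes, averaged 2708 ± 467 CPM in DMD PROL, against 138 ± 36.7 CPM in WT PROL. *TNNT1*, troponin T of slow fibers, gave 4.30 in PROL (SE 0.24, edgeR adjusted *p* = 1.7e-07) and 1.98 in DIFF (SE 0.18, edgeR adjusted *p* = 4.1e-06). *TPM2*, β-tropomyosin, was higher in DMD in DIFF (1.93, SE 0.20, edgeR adjusted *p* = 1.8e-05) and not called in PROL (−0.17, SE 0.16, edgeR adjusted *p* = 0.47). By the test of the difference in response, 4 of the 9 had a smaller and 2 a larger response in DMD (13.0% and 10.5% over all genes). The 2 were the tropomyosin genes *TPM1* and *TPM2*.

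Of genes for myosin folding and thick filament partners, 9 of 17 listed were in the table. In DIFF 6 of 7 tested were higher in DMD and 0 lower (median log2FC 3.07, 16.1% of all genes called higher). In PROL 3 of 5 were higher and 0 lower (median 0.76, 8.36% of all genes called higher). *MYBPH*, *TRIM63* and *MSTN* passed the filter in DIFF only through their DMD libraries, as did *MYBPH* and *TRIM55* in PROL. The counts and medians that include them are not independent evidence. One of the genes higher in DIFF was *MSTN* (3.90, SE 0.63, edgeR adjusted *p* = 7.2e-05), which encodes myostatin, a secreted growth factor and no part of the thick filament. Without it 5 of 6 were higher in DIFF, with a median of 1.92, and *MSTN* was not tested in PROL. *MYBPH*, myosin-binding protein H, averaged 64.9 ± 11.9 CPM in DMD DIFF, against 5.71 ± 4.16 in WT DIFF, and 31.5 ± 13.3 in DMD PROL, against 1.99 ± 2.11 in WT PROL. *TRIM55*, a ubiquitin ligase bound to the thick filament, gave 3.07 in DIFF (SE 0.42, edgeR adjusted *p* = 8.0e-05) and 4.02 in PROL (SE 0.60, edgeR adjusted *p* = 1.5e-04). Of the myosin chaperone genes, *UNC45A* was not called in DIFF (0.58, under the fold threshold, SE 0.17, edgeR adjusted *p* = 0.0096) or in PROL (−0.27, SE 0.15, edgeR adjusted *p* = 0.21). *UNC45B* was too low to be tested between genotypes. It had 66 counts in DMD DIFF, against 6 in WT DIFF, and 30 in DMD PROL, against 4 in WT PROL. Of 10 genes for light chain kinases and the phosphatase only *PPP1CB*, the phosphatase's catalytic subunit, was in the table, with 0.62 in DIFF (SE 0.09, edgeR adjusted *p* = 2.4e-05) and 0.40 in PROL, under the fold threshold (SE 0.09, edgeR adjusted *p* = 0.0029).

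By likeness over the 16 libraries (Pearson *r* of log2 CPM), *MYLPF* was closest to *TNNC1* (0.993), *ACTC1* (0.992) and *TNNT1* (0.989), and *MYL1* to the same genes, *ACTC1* (0.991), *TNNT1* (0.990) and *TNNC1* (0.990). *TNNC1* encodes troponin C of slow fibers and the heart. *MLC2V* was closest to *ACTC1* (0.990), *CARP*, an ankyrin repeat protein gene of striated muscle (0.988), and *LOC733663* (0.980). *MYH1* was closest to *CIDEA*, a lipid droplet protein gene (0.956), *SPATS2L* (0.948) and *CFL2*, the muscle cofilin gene (0.946). Once group means were subtracted, *r* was 0.680 to 0.894 for these pairs of *MYLPF* and *MYL1*. It was only 0.285 to 0.374 for those of *MLC2V* and 0.271 to 0.526 for those of *MYH1*. Among members, *MYLPF* and *MYL1* reached 0.996, and 0.813 once group means were subtracted. *MLC2V* with *MYLPF* reached 0.980, and 0.458 once group means were subtracted. These values describe libraries that share animals, groups and depth.

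Of 14 myogenic regulators listed, 8 were in the table. In DIFF 2 of 5 tested were higher in DMD and 1 lower (16.1% and 17.5% over all genes), and in PROL 2 of 4 were higher and 0 lower (8.36% and 9.87%). The transcription factor gene *MEF2C* averaged 131 ± 39.9 CPM in DMD DIFF, against 43.8 ± 11.8 in WT DIFF, and 94.6 ± 9.09 in DMD PROL, against 8.40 ± 2.07 in WT PROL. *MYOG* (myogenin) was at 45.5 ± 5.46 CPM in DMD DIFF, against 5.39 ± 4.40 in WT DIFF, and at 12.8 ± 6.83 in DMD PROL, against 1.01 ± 1.22 in WT PROL. In DIFF *MYOG* passed the filter only through its DMD libraries. *DES*, which encodes desmin, ranged from 1806 to 2205 CPM in DMD DIFF, 931 to 1414 in DMD PROL, 220 to 386 in WT DIFF and 59.7 to 83.2 in WT PROL, and was present in every library. *MYF5* had 40 counts in DMD DIFF, 30 in DMD PROL and 0 in the 8 WT libraries, which allows the same limits as for *MYH2*.

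Of 10 fibroblast markers listed, 6 were in the table, and in sum they ranged from 9488 to 12716 CPM in DMD DIFF, 4144 to 4581 in DMD PROL, 21310.0 to 24402 in WT DIFF and 8249 to 10013 in WT PROL, with none of the 6 at 0 in a group. In DIFF 5 of 6 tested were lower in DMD, where 17.5% of all genes were called lower, and in PROL 4 of 5, where 9.87% were, and 0 were higher in either state. *DCN*, the decorin gene, and *POSTN*, the periostin gene, fell most of those tested in DMD in both states, with log2FCs of −4.23 and −5.93 in DIFF (edgeR adjusted *p* = 2.4e-13 and 1.4e-09) and of −2.90 and −4.31 in PROL (edgeR adjusted *p* = 1.6e-06 and 7.2e-04). The collagen gene *COL1A2* was called lower in PROL (−0.64) but was the exception in DIFF (0.20, SE 0.11, edgeR adjusted *p* = 0.14). With a mean of 9109 CPM it made up most of the DMD DIFF sum, while its WT DIFF mean was 7918. That sum therefore mainly reflects *COL1A2*. Its response to differentiation was larger in DMD (0.84, SE 0.14, edgeR adjusted *p* = 5.5e-05), whereas 3 of the 6 markers had a smaller one. Smooth muscle and pericyte markers, 4 of 8 in the table, summed to 15823 to 20405 CPM in DMD DIFF, 1851 to 2381 in DMD PROL, 1514 to 3475 in WT DIFF and 1954 to 3192 in WT PROL. In DIFF 3 of 3 tested were higher in DMD, against 16.1% of all genes, and in PROL 2 of 4 were lower, against 9.87%. Those 2, *CNN1* and *RGS5*, passed the filter in PROL only through their WT libraries. Endothelial markers, 4 of 7, summed to 27.4 to 49.1 CPM in DMD DIFF, 13.5 to 28.9 in DMD PROL, 60.6 to 114 in WT DIFF and 107 to 134 in WT PROL. *ERG* and *PECAM1* carried these sums, with the other endothelial markers at no more than 2 counts in any library. Blood cell markers, 4 of 6, summed to 18.2 to 23.1 CPM in DMD DIFF, 25.9 to 39.6 in DMD PROL, 48.6 to 63.4 in WT DIFF and 40.0 to 72.9 in WT PROL, with *CD3E* and *HBB* at 0 throughout. The blood cell sums mainly reflect 1 gene, *CD14*, at means of 20.0, 33.1, 52.5 and 53.7 CPM in these groups in turn. The part of any of these in the myosin differences was not tested.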

How the data were processed

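The authors made 3′ libraries with unique molecular identifiers from 25 ng of total RNA. Per the labels and methods, STAR 2.7.10b aligned reads to susScr3 and counted them per gene, after bcl2fastq for demultiplexing, with UMI-tools for duplicates and FastQC and MultiQC for quality. The deposited values are raw counts, not normalized, in 32 columns for 2 technical duplicates of 16 samples. Annotation and strand setting are not given in the sources used here, and all values are even.

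Duplicates were added. In R 4.3.3 with edgeR 4.0.16, genes passed filterByExpr by group (minimum count 10, minimum total 15), were scaled by TMM and tested with estimateDisp, robust glmQLFit and glmQLFTest, with the 8 libraries compared, or all 16 for the difference between genotypes in the response. The SE is the size of the log2FC over the root of its *F* value. CPM use TMM factors over 16 libraries (0.864 to 1.17). Members that failed a filter were read from a fit without it. The fits were tested on simulated data. Precision rests on 1110050 to 1781174 counts per sample.

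The members and gene lists were chosen with earlier results of these data known. Named genes are the 5 members, the 3 genes most like each by Pearson *r*, up to 4 per list by *p* and all other sarcomeric myosins. *TPM1*, *TPM2*, *UNC45A*, *UNC45B* and *MYF5* fall outside this rule and were named after their values were seen. *COL1A2* was also named after its values were seen. In state comparisons the replicate number marks the same animal in the sample titles. Deviations from group means correlated by 0.0998 to 0.172 between the 2 states of an animal, each best with its own in 8 of 8. Alternatives were DESeq2 1.42.0, library size alone, *RN18S* left out, no filter or a minimum count of 50, either duplicate alone, halved counts, all 16 libraries in 1 fit, the replicate block, and each library left out.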

Additional observations from a re-analysis of the deposited data

Results flagged for a closer look

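The log2 response to differentiation differed between DMD and WT for *MYLPF* (−2.45), *MYL1* (−2.40) and *MLC2V* (−1.43), by the edgeR test of that difference over 16 libraries. *MLC2V* in WT PROL replicate 4, at 12.3 CPM (16 counts), lay apart from the other 3 libraries of its group, at 7.29 to 7.61 CPM (10 to 14 counts). *RN18S* took 20.4% of the counts of DMD PROL replicate 4, apart from the other 3 of its group. The last 2 come from a check of 22 groups of 4 libraries, of which chance marks about 1 in 20.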

How the results depend on the processing

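All member calls in the genotype and state comparisons kept their direction under every alternative that gave a value. In PROL *MYH1* gave none in 4 settings (a minimum count of 50, either duplicate alone, halved counts), which left 3 members called, against 4. The call of *MYH2* in PROL was lost in 9 settings (adjusted *p* = 0.053 to 0.25, among them the replicate block at 0.13), and that of *MLC2V* for the difference in response in the first duplicate alone. The uncalled difference in response of *MYH1* changed sign in the second duplicate alone (−0.014) and ranged from −0.48 to 0.56 as each library was left out. Total counts as the only scale moved the median log2FC of all genes to 0.10 in DIFF and −0.15 in PROL, against −0.03 and 0.00 with TMM, to −0.06 between states in DMD and −0.32 in WT, against 0.01 and 0.03, and to 0.25 for the difference in response, against −0.04. Calls for that difference were then 387 higher and 134 lower, against 213 and 263. With the replicate block, calls over all genes were 629 between genotypes in DIFF, 326 in PROL, 545 between states in DMD, 640 in WT and 492 for the difference in response, against 643, 349, 536, 618 and 476 without it, and no other member call changed. Between genotypes the replicate number names different animals, whose deviations correlated by −0.027 to 0.099, best with the same number in 5 of 8. Counts under 20 per library (*MYH2*, *MYH1* and *MLC2V* in WT PROL) limit what depth can show.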
